A study of Bos taurus and Bos grunniens and Bubalus bubalis with 15 samples.

Results

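The enzymes that break glycogen and glucose down to lactate were followed in back muscle (longissimus dorsi) of cattle, yak and buffalo. The 9 genes were PYGM, GPI, PFKM, ALDOA, PGK1, PGAM2, ENO3, LDHA and LDHB. They were taken as every probe set to which the array's annotation gives one of these symbols, which made 13 probe sets of the 24128 on the array and 9 genes of the 9155 that have a symbol of their own. All 13 were bright enough to be tested. PFKM and LDHA each had 3 probe sets, and every other gene had 1. Unless stated otherwise a gene is represented by its brightest probe set.

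There were 5 groups of 3 animals, all aged 36 months, with 1 array per animal. Intact males, castrated males and females were cattle of the Qinchuan breed, similar in genetic background and kept under shared conditions. The remaining groups were Qinghai yak and Guangxi buffalo. The sources used here state neither their sex nor the age at castration of the males. The values are hybridisation intensities on a linear scale as the authors summarised them, and precision is set by having 3 arrays a group. The array carries cattle sequence. A lower intensity in yak or buffalo therefore cannot be told apart from weaker binding of their RNA to cattle probes, and differences between species below are differences in intensity. In whole muscle, fewer fibres of a type and less RNA per fibre cannot be told apart either.

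Muscle stores glucose as glycogen. Glycogen phosphorylase, the product of PYGM in muscle, releases it as glucose 1-phosphate, which enters glycolysis as glucose 6-phosphate. GPI turns this into fructose 6-phosphate, PFKM (the muscle phosphofructokinase) makes the committed step, and ALDOA splits the sugar. PGK1, PGAM2 (the muscle phosphoglycerate mutase) and ENO3 (the muscle enolase) then lead to pyruvate. LDHA and LDHB encode the muscle and heart subunits of lactate dehydrogenase, which interconverts pyruvate and lactate. Fast fibres rely on glycolysis more than slow fibres do, and slow fibres are richer in the LDHB subunit.

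One array stood apart among the cattle, in its correlation with its own group and in sums of marker genes. The first intact male had a mean correlation of 0.931 with the other intact males over all probe sets tested, against 0.971 to 0.977 within the castrated males and within the females. The summed intensity of 15 macrophage markers was 42636 on it, against 12528 and 8459 on the other intact males, 3134 to 4720 on the castrated males and 2013 to 3078 on the females. All 15 were above the castrated male and female mean there. Its summed intensity of 11 fibroblast and matrix markers was 52327, and that of the other intact males was 41058 and 35576, against 10460 to 14625 on the castrated male and female arrays. The 9 muscle genes tested, PYGM among them, summed to 76012 on this array, to between 94804 and 101829 on the other 8 cattle arrays, to between 90580 and 95811 in the yak and to between 80186 and 82205 in the buffalo. Muscle genes were thus bright on all 15 arrays, lowest on the first intact male. Its 3′ to 5′ ratio of actin was 1.48, the highest among cattle, where the others lay between 1.17 and 1.39; the yak lay between 1.49 and 1.93 and the buffalo between 1.42 and 1.73. Results of the 9 enzymes that rest on the intact males are given with and without this array.

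In the first intact male the 8 enzymes other than LDHB were all at their lowest among the 9 cattle. PYGM had an intensity of 4161 on it, against 9168 to 11889 on the other 8 cattle arrays, a 2.51-fold difference. PFKM was at 3319 against 6632 to 9834, and GPI at 2204 against 3499 to 6084. ALDOA, which barely varied among the other 8 (16155 to 16781), was at 9085. PGAM2 was at 5425 against 8827 to 12565 and ENO3 at 6975 against 11560 to 14752. The gaps were smallest for PGK1, at 4258 against 4826 to 8278, and for LDHA, at 9872 against 13000 to 16730. No array of the other cattle fell below the first intact male for any of these 8 genes. Of all probe sets tested, 1.67% had a lower log2 difference between this array and the other 8 than PYGM had. For LDHA 11.2% had a lower one, and the rest of the 8 enzymes lay between. The share of all probe sets that were lowest on this array is not given here, so no excess is read from the count of 8. LDHB, at 4796, ranked 7 of 9 from the lowest and lay inside the range of the others (2717 to 5392).

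Taken as medians against the castrated male and female arrays, the 8 enzymes lay 0.97 lower on the log2 scale in the first intact male, 0.11 lower in the second and 0.04 higher in the third. The 7 fast fibre genes tested, such as ACTN3 and TNNI2, lay 0.52 lower in the first, with 7 of 7 below, and 9 slow fibre genes lay 0.09 lower. Macrophage markers lay 3.32 higher in the first, 1.58 in the second and 0.95 in the third. The median of all probe sets tested was 0.01 lower in the first. The 9 muscle genes lay 0.41 lower in the first intact male, with 8 of 9 below, and 5 endothelial markers lay 0.81 lower, with 5 of 5 below. The 7 markers of regenerating fibres lay 0.98 higher and summed to 6226, against 1038 to 2447 on the other cattle arrays. The enzymes were low on the array where macrophage and matrix markers were highest; the part of these cells, of muscle content or of RNA quality in the result was not tested.

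**Figure D1:**
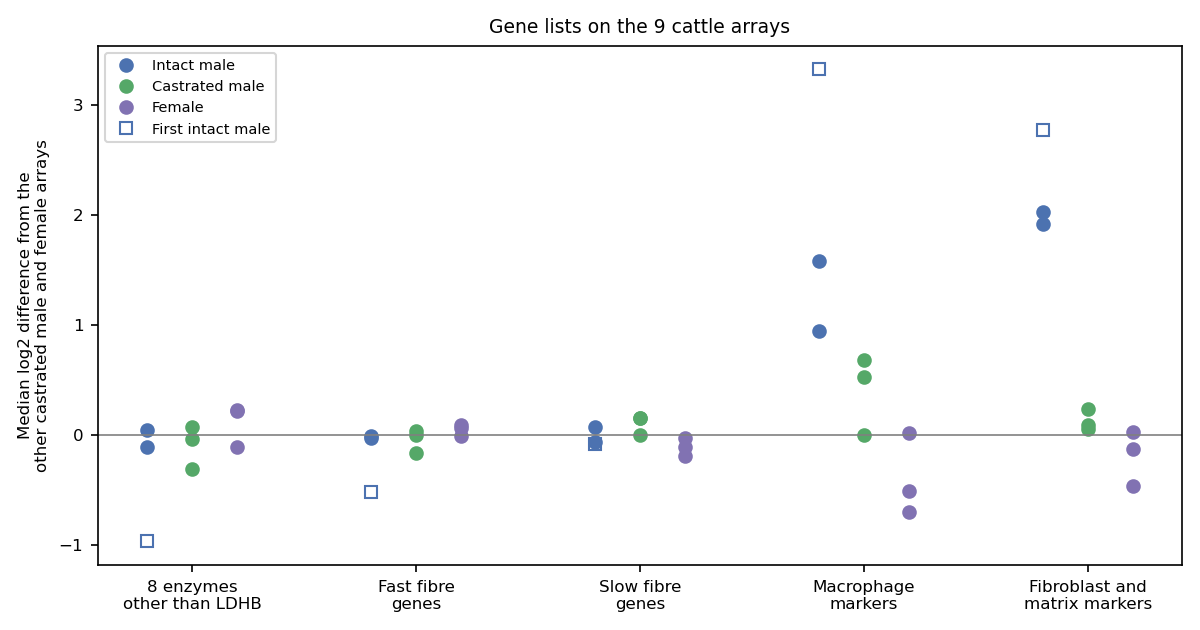
Median log2 difference of each cattle array (vertical axis) from the mean of the castrated male and female arrays, itself left out, for 5 gene lists (horizontal axis); each point is 1 array and the open square is the first intact male. The first intact male is at -0.97 for the 8 enzymes, at -0.52 for fast fibre genes and at 3.32 for macrophage markers.

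The first comparisons ask how castration and sex relate to the muscle of Qinchuan cattle. Differences are given as log2 fold changes after 16 was added to each intensity, with the SE and the Benjamini-Hochberg adjusted p of limma over the 14409 probe sets tested, and a gene is said to rise or fall only where the adjusted p is under 0.05. None of the 9 enzymes passed in any of the 3 comparisons among cattle groups. In castrated against intact males, 0 of 9 passed, where 1.46% of all probe sets did, and 0 of 9 had an unadjusted p under 0.05. In females against intact males, 0 of 9 passed, where 5.50% of all probe sets did, and 2 of 9 (PFKM and LDHB) had an unadjusted p under 0.05. In females against castrated males, 0 of 9 passed, where 0.0208% of all probe sets did, and 1 of 9 (LDHB) had an unadjusted p under 0.05. No share of all probe sets is given for the unadjusted p, so no excess is read from those counts.

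PFKM had intensities of 3319, 6632 and 7974 in intact males, 6875, 8601 and 8929 in castrated males and 8226, 9802 and 9834 in females. Every female lay above every intact male. The difference was 0.72 ± 0.28 (SE, n = 3 and 3; adjusted p = 0.131 in limma), and the 95% interval ran from 0.10 to 1.35. Both other PFKM probe sets gave differences of the same sign, 1.13 ± 0.45 and 1.10 ± 0.54, with adjusted p of 0.142 and 0.222 in limma. Without the first intact male the median difference of the 9 enzymes between females and intact males went from 0.39 to 0.08, and 0 of 9 passed where 3.71% of probe sets did. Leaving out the third intact male instead brought GPI (0.90, adjusted p = 0.0472 in limma) and PFKM (0.98, adjusted p = 0.0391) past the threshold. The count thus moved from 0 to 2 with 1 array, while the share of all probe sets that passed moved from 5.50% to 15.2%.

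Castrated males differed from intact males by a median of 0.27 over the 9 enzymes, against -0.00013 over all probe sets. Without the first intact male this median was -0.02, and 0 of 9 passed where 1.44% of probe sets did. PYGM had intensities of 4161, 9860 and 11438 in intact males, 9512, 9575 and 10935 in castrated males and 9168, 11889 and 11823 in females. Apart from the first intact male the cattle groups overlapped for PYGM. GPI had intensities of 2204, 3846 and 5115 in intact males, 3499, 4327 and 4883 in castrated males and 4433, 6084 and 5967 in females, again with overlap.

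Among the cattle groups the mean of LDHB was lowest in females, and its differences did not pass. Its intensities were 4796, 4962 and 3590 in intact males, 5392, 4521 and 4516 in castrated males and 2717, 3808 and 3644 in females. All 3 females lay below all 3 castrated males, and they overlapped with the intact males. The difference from castrated males was -0.51 ± 0.17 (SE, n = 3 and 3; unadjusted p = 0.0142, adjusted p = 0.575 in limma), with a 95% interval from -0.90 to -0.13. That from intact males was -0.39 ± 0.17 (unadjusted p = 0.0463, adjusted p = 0.173 in limma). Of 9 slow fibre genes tested, 8 were also lower in females than in castrated males, with 0 past the threshold and a median difference of -0.14, against 0.00317 over all probe sets; the part of fibre type in the LDHB values was not tested.

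**Figure D2:**
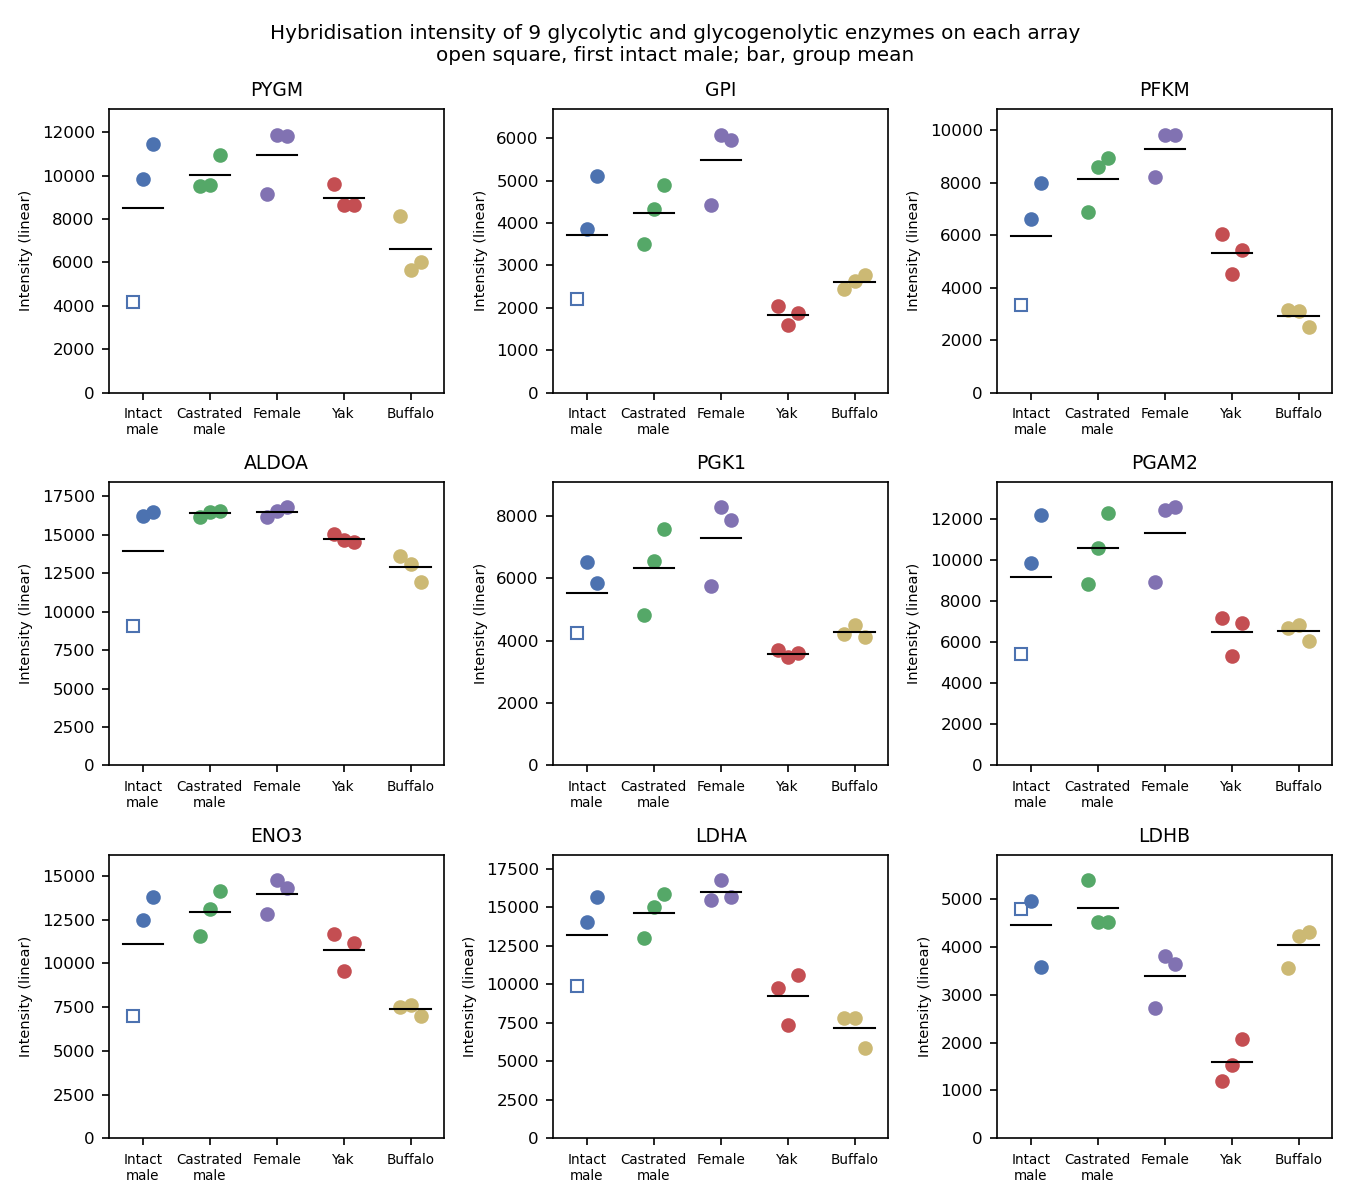
Linear hybridisation intensity (vertical axis) of the brightest probe set of each of the 9 enzymes in the 5 groups (horizontal axis); each point is 1 array, the bar is the mean of 3 arrays and the open square is the first intact male. The first intact male is the lowest of the 9 cattle in 8 of the 9 panels, and LDHB is lowest in the yak.

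The next comparisons set the yak and the buffalo against the 9 cattle, taken as the mean of the 3 group means. Both share the cattle arrays, so their values are given side by side and are not independent. In the yak 5 of 9 enzymes fell (GPI, PGK1, PGAM2, LDHA and LDHB) and 0 rose, where 29.1% of all probe sets changed and 15.9% fell. In the buffalo 6 of 9 fell (GPI, PFKM, PGK1, PGAM2, ENO3 and LDHA) and 0 rose, where 51.4% of all probe sets changed and 28.4% fell. The median difference of the 9 enzymes was -0.64 in the yak and -0.62 in the buffalo, against -0.02 and -0.03 over all probe sets. The enzymes are bright, and in the buffalo the median over all probe sets moved with brightness. It was 0.09 with no filter and -0.12 with a filter at the 60th percentile, against -0.005 and -0.02 in the yak. Mean intensity was 304 to 313 on the buffalo arrays and 342 to 364 on the cattle arrays. The part of brightness in these differences was not tested. Members that lay below all 9 cattle arrays numbered 3 in the yak, where 10.4% of probe sets did, and 2 in the buffalo, where 18.3% did.

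The first intact male also set the lower end of the cattle range. Without it, 8 of 9 enzymes fell in the yak, all but PYGM, where 17.8% of probe sets fell, and 8 of 9 fell in the buffalo, all but LDHB, where 30.2% did. Then 7 of 9 lay below all 8 cattle arrays in the yak, where 12.4% of probe sets did, and 8 of 9 in the buffalo, where 21.8% did. The added calls were PFKM (-0.63), ALDOA (-0.16) and ENO3 (-0.31) in the yak, and PYGM (-0.69) and ALDOA (-0.35) in the buffalo. In a further comparison the mean of castrated males and females stood for the cattle. The intact males stayed in that fit and entered its shared estimate of spread. There 6 of 9 fell in the yak, where 1675 of the 14409 probe sets did. In the buffalo 7 of 9 fell, where 3818 of the 14409 did.

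**Figure D3:**
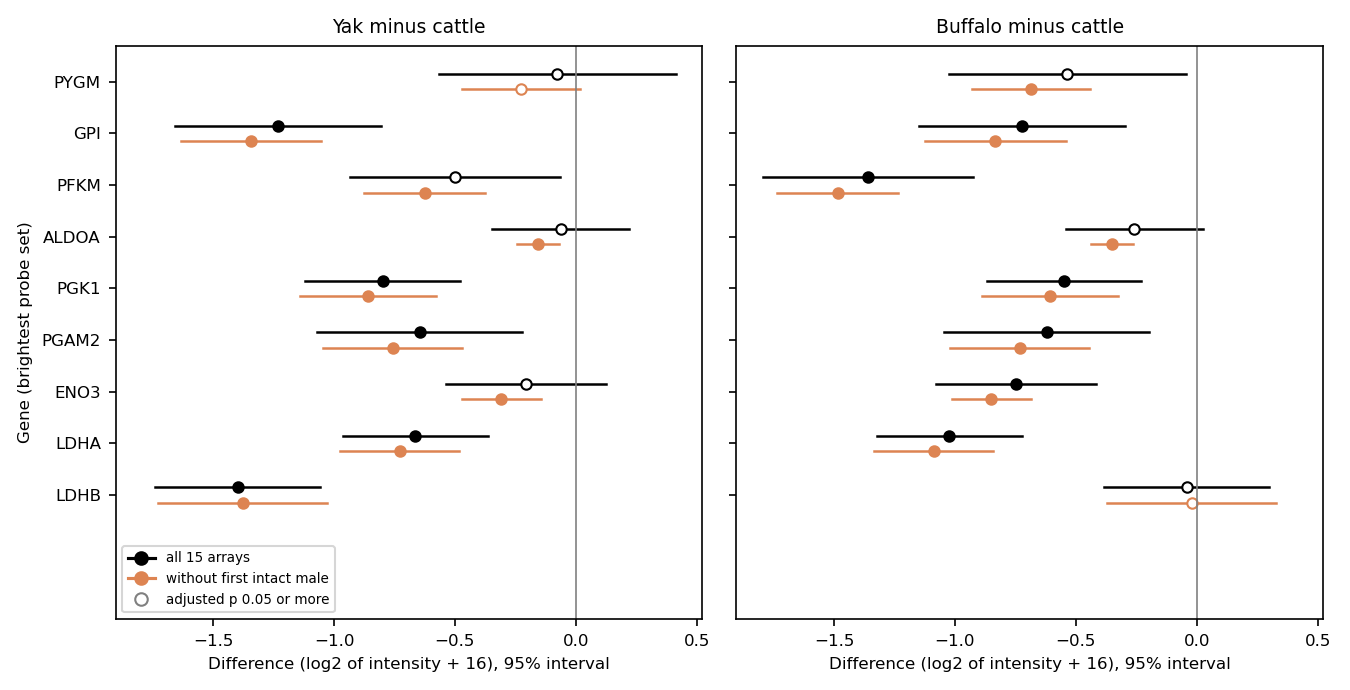
Difference of yak (left) and buffalo (right) from cattle for the 9 enzymes (vertical axis), on the log2 scale of intensity plus 16 (horizontal axis), with 95% intervals from limma; black is the fit on all 15 arrays, orange is the fit without the first intact male, and open points have an adjusted p of 0.05 or more. Without that array the intervals are narrower for the 8 enzymes other than LDHB, and in both fits all 9 estimates lie below 0 in both species; LDHB in the buffalo is at -0.04 on all 15 arrays and at -0.02 without that array.

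Among the enzymes of glycogen breakdown and the first steps of glycolysis, PYGM had intensities of 9631, 8623 and 8653 in the yak and 8133, 5658 and 6006 in the buffalo. The yak lay inside the range of the cattle, and the buffalo lay above the first intact male and below the other 8. The difference from cattle was -0.08 ± 0.23 in the yak (adjusted p = 0.825 in limma) and -0.54 ± 0.23 in the buffalo (adjusted p = 0.0636).

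GPI, the isomerase that links the hexose phosphates, had intensities of 2040, 1597 and 1876 in the yak, below all 9 cattle arrays. It had 2432, 2641 and 2767 in the buffalo, above the first intact male only. The mean was 4484 ± 1221 (SD, n = 9) in cattle, 1838 ± 224 (SD, n = 3) in the yak and 2613 ± 169 (SD, n = 3) in the buffalo. GPI fell by 1.23 on the log2 scale in the yak (SE 0.20, adjusted p = 0.000639 in limma), a 2.35-fold difference. It fell by 0.72 in the buffalo (SE 0.20, adjusted p = 0.00784), or 1.65-fold.

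PFKM, the main point of control of muscle glycolysis, had intensities of 6026, 4512 and 5436 in the yak and 3144, 3117 and 2505 in the buffalo. All 3 buffalo lay below every cattle array, and below every yak. PFKM fell by 1.36 in the buffalo (SE 0.20, adjusted p = 9.66e-05 in limma), a 2.57-fold difference, while the yak differed by -0.50 ± 0.20 (adjusted p = 0.0781). The other PFKM probe sets did not give 1 answer. One fell by 2.04 in the buffalo (SE 0.42, adjusted p = 0.0012 in limma), with intensities of 329, 215 and 130 there against 207 to 1584 in cattle. The other had 2860, 2483 and 1571 in the buffalo against 830 to 4745 in cattle and did not pass (-0.50 ± 0.33, adjusted p = 0.222). On that probe set the yak were at 3176, 2116 and 2539, and the buffalo overlapped with them.

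ALDOA, the muscle aldolase, had intensities of 15028, 14637 and 14510 in the yak and 13641, 13075 and 11944 in the buffalo. All 6 lay below the 8 cattle arrays other than the first intact male. The differences from all cattle were -0.06 ± 0.13 (adjusted p = 0.75 in limma) and -0.26 ± 0.13 (adjusted p = 0.119). Without the first intact male ALDOA fell by 0.16 in the yak (SE 0.04, adjusted p = 0.0104) and by 0.35 in the buffalo (SE 0.04, adjusted p = 1.27e-05). Its cattle values stood near the highest intensity on any array, 20615, so a difference there may be compressed; this was not tested.

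Among the enzymes from the triose phosphates to pyruvate, PGK1, which makes ATP from 1,3-bisphosphoglycerate, had intensities of 3704, 3469 and 3592 in the yak, below all cattle. It had 4211, 4492 and 4117 in the buffalo, of which 1 lay above the first intact male and none above another cattle array. PGK1 fell by 0.80 in the yak (SE 0.15, adjusted p = 0.00169 in limma) and by 0.55 in the buffalo (SE 0.15, adjusted p = 0.00731).

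PGAM2 had intensities of 7169, 5311 and 6956 in the yak and 6708, 6840 and 6076 in the buffalo, against 5425 in the first intact male and 8827 to 12565 in the other cattle. It fell by 0.64 in the yak (SE 0.20, adjusted p = 0.0257 in limma) and by 0.62 in the buffalo (SE 0.20, adjusted p = 0.0177). The yak call was lost when any 1 of the 3 yak was left out, with adjusted p of 0.0561, 0.146 and 0.0503 in turn, and the buffalo call when the third buffalo was left out (adjusted p = 0.0723).

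ENO3 had intensities of 11666, 9582 and 11146 in the yak and 7527, 7644 and 7015 in the buffalo. The yak overlapped with the lower cattle, while all buffalo lay above the first intact male and below the other 8 cattle. ENO3 fell by 0.75 in the buffalo (SE 0.15, adjusted p = 0.00124 in limma), a 1.68-fold difference, and the yak differed by -0.21 ± 0.15 (adjusted p = 0.335).

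LDHA had intensities of 9730, 7332 and 10580 in the yak and 7831, 7773 and 5870 in the buffalo. One yak array lay above the first intact male, and the other 5 arrays lay below every cattle array. The mean was 14587 ± 2079 (SD, n = 9) in cattle, 9214 ± 1684 (SD, n = 3) in the yak and 7158 ± 1116 (SD, n = 3) in the buffalo. LDHA fell by 0.66 in the yak (SE 0.14, adjusted p = 0.00366 in limma) and by 1.02 in the buffalo (SE 0.14, adjusted p = 5.01e-05). Its other probe sets differed from this. The second had 1270, 1195 and 1139 in the yak, inside the cattle range of 708 to 1547, and a difference of -0.07 ± 0.19 (adjusted p = 0.818); in the buffalo it fell by 0.84 (SE 0.19, adjusted p = 0.00223). The third fell by 0.62 in the yak (SE 0.17, adjusted p = 0.0143) and did not pass in the buffalo (-0.39 ± 0.17, adjusted p = 0.0677). On the first intact male the third was the highest of the 9 cattle, at 726, while the others were the lowest.

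LDHB had intensities of 1202, 1524 and 2066 in the yak, all below the lowest cattle array, and 3562, 4234 and 4307 in the buffalo, all inside the cattle range. The mean was 4216 ± 836 (SD, n = 9) in cattle, 1597 ± 437 (SD, n = 3) in the yak and 4034 ± 411 (SD, n = 3) in the buffalo. LDHB fell by 1.40 in the yak (SE 0.16, adjusted p = 5.11e-05 in limma), a 2.64-fold difference. In the buffalo it differed by -0.04 ± 0.16 (adjusted p = 0.843), with a 95% interval from -0.38 to 0.30.

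Buffalo and yak were also set against each other. There 3 of 9 enzymes changed, where 42.2% of all probe sets did. PFKM was lower in the buffalo by 0.86 on the log2 scale (-0.86 ± 0.25, adjusted p = 0.0132 in limma) and ENO3 by 0.54 (-0.54 ± 0.19, adjusted p = 0.0339). LDHB was higher in the buffalo by 1.36 ± 0.19 (adjusted p = 0.000113), and the 3 buffalo lay above the 3 yak. Without the first intact male, which is in neither group but enters the shared estimate of spread, 7 of 9 changed, where 46.5% of probe sets did: PYGM (-0.46), ALDOA (-0.19) and LDHA (-0.36) were then also lower and GPI (0.51) higher in the buffalo. The ENO3 call was lost when any of 5 of the 6 yak and buffalo arrays was left out, with adjusted p from 0.0607 to 0.105, and the PFKM call without the first yak (adjusted p = 0.0526) or the third buffalo (adjusted p = 0.0522). LDHB kept its call without each array in turn.

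One more scaling bears on these calls. When the arrays were quantile normalised, GPI, PGK1 and PGAM2 no longer passed in the buffalo (adjusted p of 0.0737, 0.0743 and 0.0546 in limma). Then 3 of 9 enzymes fell, where 3472 of the 14409 probe sets fell and 54.7% changed in either direction. The share of calls that were higher in the buffalo than in cattle was then 56.0%, against 44.8% without quantile normalisation. Against the yak, PFKM and ENO3 no longer passed (adjusted p of 0.0580 and 0.107) and GPI did (0.75, adjusted p = 0.0305).

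Because LDHA and LDHB subunits assemble into 1 enzyme, the difference of their log2 values on each array was followed across groups. The levels of 2 probe sets cannot be compared with each other, so only the change of this difference between groups is read. It was -1.04, -1.49 and -2.12 in intact males, -1.27, -1.73 and -1.81 in castrated males and -2.50, -2.13 and -2.10 in females. It was -3.00, -2.25 and -2.35 in the yak and -1.13, -0.87 and -0.45 in the buffalo. The buffalo mean lay 0.98 above the cattle mean (two-sided exact permutation test over arrays, 3 against 9, p = 0.00909, adjusted p = 0.0455 over 5 comparisons), and only the first intact male, among cattle, reached into the buffalo range. The yak mean lay 0.74 below the cattle mean (exact p = 0.0409, adjusted p = 0.102). Females lay below castrated males by 0.64 (exact p = 0.1, the smallest that 3 against 3 allows, adjusted p = 0.167) and below intact males by 0.69 (exact p = 0.2, adjusted p = 0.25). Castrated and intact males differed by -0.05 (exact p = 1). The test treats the 9 cattle as 1 group although they came from 3. The adjusted p in the buffalo was 0.05 or more when any 1 of these was left out: the second or the third intact male, a castrated male, the second or the third female, or a buffalo, and ran from 0.0606 to 0.167 there.

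**Figure D4:**
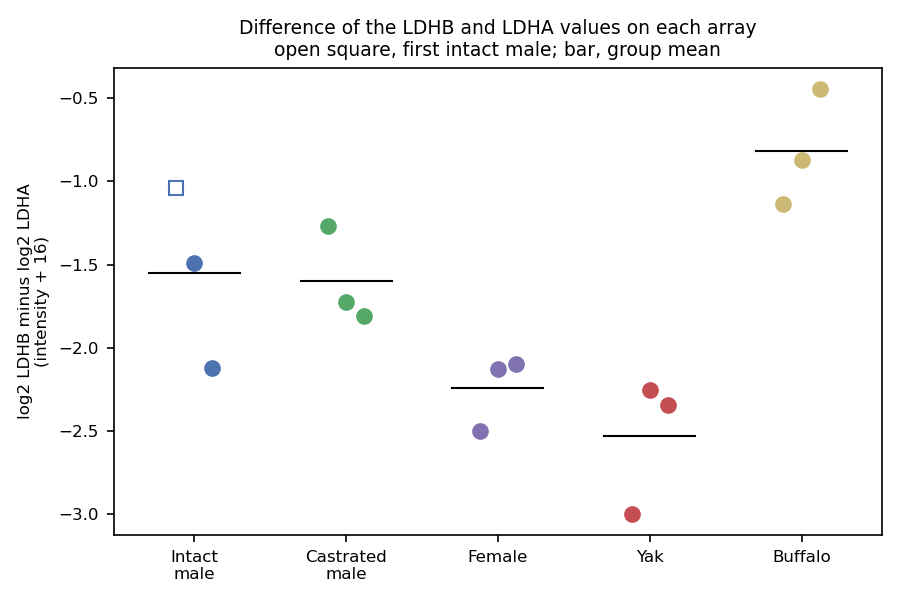
log2 LDHB minus log2 LDHA on each array (vertical axis) in the 5 groups (horizontal axis); each point is 1 array, the bar is the mean of 3 and the open square is the first intact male. The buffalo lie between -1.13 and -0.45 and the yak between -3.00 and -2.25.

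Fibre type genes moved in both species. In the yak 7 of 9 slow fibre genes tested fell, where 15.9% of all probe sets did, and 0 of 7 fast fibre genes passed. MYL3, the slow light chain of myosin, had intensities of 111, 714 and 282 in the yak against 3132 to 9739 in cattle (-4.20 ± 0.40, adjusted p = 1.47e-05 in limma). MYH7, the slow myosin heavy chain, fell by 0.49 (SE 0.10, adjusted p = 0.00402). In the buffalo 5 of 9 slow fibre genes rose and 1 fell, and 4 of 7 fast fibre genes fell and 0 rose, where 23.0% of all probe sets rose and 28.4% fell. ACTN3, which anchors actin in fast fibres, had intensities of 4078, 3714 and 3248 in the buffalo against 6087 to 11742 in cattle (-1.37 ± 0.14, adjusted p = 3.5e-06), and MYH7 rose by 0.56 (SE 0.10, adjusted p = 0.00059). LDHB was low in the yak, where slow fibre genes were low, and PFKM and ENO3 were low in the buffalo, where fast fibre genes were low. GPI, PGK1, PGAM2 and LDHA also fell in the yak, where 0 of 7 fast fibre genes passed, and LDHB did not pass in the buffalo, where 5 slow fibre genes rose. The part of fibre type in these values was not tested. Summed macrophage markers were 2177 to 2285 in the yak and 1428 to 1848 in the buffalo, and 11 matrix markers summed to 5353 to 6535 and 4564 to 7835, below the cattle arrays for matrix. Against the castrated male and female arrays, 6 adipocyte markers had medians of -2.18, -1.19 and -1.06 on the yak arrays, with 6 of 6 below on each, and of -0.29, -0.84 and -1.10 on the buffalo arrays. The 9 muscle genes had medians of -0.11, -0.11 and -0.09 in the yak and of -0.34, -0.46 and -0.37 in the buffalo. The part of these cell types in the species differences was not tested.

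Of 77 other genes of glycogen and glucose use, 57 had a probe set and 51 were tested. In castrated against intact males 0 of 51 passed in either direction, where 1.46% of all probe sets did, and 10 had an unadjusted p under 0.05. In females against intact males 1 of 51 fell and 0 rose. Of all probe sets 5.50% passed there and 486 of 14409 fell, so nothing is read from the count. The gene that fell was HK1, the hexokinase that traps glucose in most tissues. It had intensities of 679, 418 and 402 in intact males and 204, 257 and 225 in females (-1.04 ± 0.22, adjusted p = 0.0341 in limma). The intact males also had the highest summed macrophage and matrix markers, and the part of those cells in the HK1 values was not tested. In females against castrated males 0 of 51 passed, where 0.0208% of all probe sets did, and 3 had an unadjusted p under 0.05. The share of all probe sets with an unadjusted p under 0.05 is not given here, so no excess is read from these counts. Without the first intact male, GSK3B, a kinase that inhibits glycogen synthase, rose in castrated males (0.55 ± 0.11, adjusted p = 0.0474), and HK1 still fell in females (-0.81 ± 0.17, adjusted p = 0.0403).

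In the yak 4 of these 51 genes rose and 9 fell, where 13.2% of all probe sets rose and 15.9% fell. In the buffalo 7 rose and 13 fell, where 23.0% of all probe sets rose and 28.4% fell. The counts were near or below those shares, so the genes below are described singly and not as a movement of the pathway. PKM, the pyruvate kinase of muscle, had intensities of 2010, 1440 and 1774 in the yak and 2259, 2155 and 2395 in the buffalo. The first intact male was at 1839, inside the range of these 6 arrays, and the other 8 cattle lay above all of them, at 3143 to 5705. PKM fell by 1.15 in the yak (SE 0.18, adjusted p = 0.000601 in limma) and by 0.76 in the buffalo (SE 0.18, adjusted p = 0.00364). PGAM1, the phosphoglycerate mutase of other tissues, fell by 1.26 in the yak (SE 0.16, adjusted p = 0.000143) and by 0.60 in the buffalo (SE 0.16, adjusted p = 0.00796). GAPDH, the step before PGK1, did not pass in either (-0.02 ± 0.11, adjusted p = 0.907, and -0.23 ± 0.11, adjusted p = 0.104). It was at 10917 on the first intact male and at 16236 to 18118 on the other 8 cattle. The buffalo, at 15213, 13938 and 13317, lay below those 8. A GAPDH difference without the first intact male is not given here. Its values also stood near the highest intensity on any array, 20615, so a difference may be compressed, which was not tested. TPI1, the isomerase of the triose phosphates, did not pass in either species (-0.16 ± 0.15, adjusted p = 0.443, and -0.23 ± 0.15, adjusted p = 0.209).

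The genes of the glycerophosphate and malate shuttles, which carry the reducing power of glycolysis into mitochondria, moved in both directions. GPD1, the cytosolic glycerol 3-phosphate dehydrogenase, averaged 5092 ± 1293 (SD, n = 9) in cattle, 2252 ± 364 (SD, n = 3) in the yak and 1714 ± 225 (SD, n = 3) in the buffalo, and fell by 1.13 and by 1.52 on the log2 scale (SE 0.22 for both, adjusted p of 0.00204 and 7.25e-05 in limma). GPD2, its mitochondrial partner, rose by 1.19 in the yak (SE 0.22, adjusted p = 0.00147) and by 1.38 in the buffalo (SE 0.22, adjusted p = 0.000157), and lay above every cattle array in both. GOT1, the cytosolic aspartate transaminase, lay below every cattle array in both, and fell by 0.93 in the yak (SE 0.15, adjusted p = 0.000574) and by 1.42 in the buffalo (SE 0.15, adjusted p = 4.28e-06).

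Transport genes also differed. SLC16A1, a lactate and pyruvate carrier, had a mean of 541 ± 277 (SD, n = 3) in the buffalo against 142 ± 29.7 (SD, n = 9) in cattle and rose by 1.68 (SE 0.27, adjusted p = 0.000176 in limma). SLC2A4, the glucose transporter that answers to insulin, had intensities of 150, 152 and 160 in the yak and 268, 406 and 293 in the buffalo. It fell by 0.51 in the yak (SE 0.17, adjusted p = 0.0408) and rose by 0.46 in the buffalo (SE 0.17, adjusted p = 0.0391). PFKFB3, which makes an activator of phosphofructokinase, rose by 1.13 in the yak (SE 0.36, adjusted p = 0.0314) and did not pass in the buffalo (0.73 ± 0.36, adjusted p = 0.106). LDHC, the lactate dehydrogenase of the testis, lay between 2.56 and 8.48 on all 15 arrays and was too dim to be tested. HK2 and GYS1 were not analysed here.

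In the buffalo against the yak, 6 of the 51 genes were higher and 6 lower, where 42.2% of all probe sets changed. SLC16A1 was higher in the buffalo (2.05 ± 0.33, adjusted p = 0.000291 in limma), as were SLC2A4 (0.97 ± 0.21, adjusted p = 0.00256). GSK3A, a kinase that inhibits glycogen synthase, was lower (-0.79 ± 0.19, adjusted p = 0.00424), as was the hexokinase HK3 (-0.55 ± 0.13, adjusted p = 0.00424). Against cattle without the first intact male, 4 rose and 12 fell in the yak, where 14.4% of all probe sets rose and 17.8% fell. In the buffalo 8 rose and 17 fell, where 24.4% rose and 30.2% fell.

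Across arrays the enzymes other than LDHB varied together. Over the 15 arrays the correlation of their log2 intensities, pair by pair, had a median of 0.82 and ran from 0.57 to 0.98 in 28 pairs, and over the 8 cattle arrays other than the first intact male it had a median of 0.84. LDHB had correlations of -0.16 to 0.53 with them over all arrays and of -0.64 to -0.11 over those 8 cattle. These are descriptions: the arrays fall into 5 groups, and species, group and the first intact male all enter them.

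Among 7004 other genes with a symbol, those whose log2 intensity followed the mean profile of the 8 enzymes most closely over the 15 arrays were PCMT1 (r = 0.956), CHRNA5 (0.955), SLC6A8 (0.942), MTUS1 (0.938) and SPATA2 (0.935). Over the 9 cattle arrays their r lay between 0.914 and 0.975. Those nearest to LDHB were GPX2 (r = 0.958), MYL3 (0.939), DLC1 (0.935), KCNN4 (0.918) and CASP6 (0.913). Over the 9 cattle arrays MYL3 kept an r of 0.895 with LDHB, and the other 4 had between 0.599 and 0.755. Groups, species and arrays are shared by these profiles, so the values describe likeness only.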

How the data were processed

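Total RNA of longissimus dorsi was extracted with Trizol, made into biotin-labelled cRNA and hybridised to an Affymetrix bovine array, per the labels' protocols. The deposited values are linear intensities, 1 per probe set and array, as the authors summarised them. The sources used here do not state which software and normalisation they used. The labels call the 3 arrays of each group biological replicates.

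After 112 control probe sets were set aside, 16 was added to each intensity and log2 taken, and probe sets with a mean log2 value above the 40th percentile (6.42) were kept, 14409 of 24016. Groups were compared with limma 3.58.1 in R 4.3.3 (lmFit, eBayes with trend, Benjamini-Hochberg over all probe sets tested, threshold 0.05), cattle groups on the 9 cattle arrays and species on all 15. Intervals are 95%. The fits were tested on simulated data. The difference of LDHB and LDHA was compared with exact permutation tests over arrays.

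A table of the platform's annotation gave 1 symbol to 13292 probe sets, several to 86 and none to 10638, and 13263 identifiers matched RefSeq. Members and lists were chosen with earlier results of these data known. All 9 members are named. Of the other pathway genes, up to 4 a comparison with the smallest p among those past the threshold are named, and GAPDH, PKM, TPI1, HK2, GYS1, PFKFB3, SLC2A4 and LDHC always; fibre genes, GSK3B and a named gene's values in further comparisons were chosen after their values were seen. The genes nearest in profile are the 5 with the highest r. Alternatives covered the value added, the filter, scaling, array weights, the moderation, probe set choice, the cattle reference, the replicate number as a block and each array left out.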

Additional observations from a re-analysis of the deposited data

Results flagged for a closer look

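Of the 9 enzymes, 3 differed from cattle by unequal amounts in the buffalo and in the yak, by the test of that difference itself, which with shared cattle arrays is the difference of buffalo and yak. By the same test 42.2% of all probe sets did, so the count of enzymes was not above that share. For PFKM the difference from cattle was lower in the buffalo than in the yak by 0.86 on the log2 scale (-0.86, adjusted p = 0.0132 in limma), with 3 of 3 buffalo below 3 of 3 yak. For ENO3 it was -0.54 (adjusted p = 0.0339), again with 3 of 3 buffalo below the yak. For LDHB it was 1.36 (adjusted p = 0.000113), with 3 of 3 buffalo above the yak. PFKM and ENO3 did not pass with quantile normalisation (adjusted p of 0.0580 and 0.107 in limma), nor with some single arrays left out. All these are values of the brightest probe set of each gene. On another PFKM probe set the buffalo, at 2860, 2483 and 1571, overlapped with the yak, at 3176, 2116 and 2539.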

How the results depend on the processing

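Over all alternatives, 1287 values of the members were recomputed for 54 pairs of gene and comparison. Of these 1230 kept their direction and side of the threshold, 17 lost it, 22 gained it, 18 changed sign with neither value past it, and 0 reversed a call. Counts of members past the threshold moved as follows. With quantile normalisation the buffalo count against cattle was 3, all lower, where 3472 of the 14409 probe sets were lower. With array weights, estimated gene by gene because the default estimation did not converge, the count for buffalo against yak was 5, that for the yak went from 5 to 7 (PFKM and ENO3 added) and that for the buffalo from 6 to 8 (PYGM and ALDOA added). In these comparisons, in that order, array weights called 50.6%, 46.1% and 54.9% of all probe sets. Leaving out 1 array gave 0 to 2 members for females against intact males, 4 to 8 for the yak, 5 to 8 for the buffalo and 1 to 7 for buffalo against yak, and 0 for the other comparisons. For buffalo against yak the lowest count came without the first yak or the third buffalo and the highest without the first intact male. The share of all probe sets called also moved. It ran from 0.534% to 15.2% in females against intact males and from 15.8% to 32.2% in the yak. In the buffalo it ran from 43.1% to 54.7%, and in buffalo against yak from 32.8% to 46.5%. With the mean of a gene's probe sets PFKM no longer passed in buffalo against yak (adjusted p = 0.0894 in limma).

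For LDHB minus LDHA, the castrated against intact value of -0.05 became 0.0327 with quantile normalisation and 0.17 with the mean of a gene's probe sets, and ran from -0.33 to 0.21 with 1 array left out. The yak value was -0.95 with the mean of a gene's probe sets, past the threshold by the exact test, and -0.88 to -0.50 with 1 array left out, past the threshold without the first female (-0.82, adjusted exact p = 0.0455). The buffalo value ran from 0.80 to 1.14 with 1 array left out, and the call was lost in 10 such settings. The replicate block left it at 0.98 but with an adjusted exact p of 0.417, a design of 3 pairs that cannot pass the threshold. Why these moved was not tested.

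Arrays of different groups with the same replicate number did not deviate together: 30 such pairs had correlations of -0.33 to 0.145, 6 of them over 0.1, and 4 of 15 arrays correlated best with their own number. With the replicate block 0, 0, 0, 5, 6 and 3 members passed in the 6 comparisons. Over all probe sets, array weights called 929 in castrated against intact males, 2282 in females against intact males and 6642 in the yak, and a fit on all 15 arrays called 718 and 1911 in the first 2. Leaving out 1 array gave 41 to 995 calls in castrated against intact males and 77 to 2194 in females against intact males, in both the most without the third intact male. Without yak 1 or yak 2, 2281 and 2514 probe sets were called in the yak. With no filter 11929 were called in the buffalo, 59.6% of them higher. In females against castrated males, all alternatives called 0 to 11. LDHC was too dim to be tested.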
